A study of Mus musculus with 18 samples.

Results

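The comparison described here sets the ileal epithelium of mouse pups 24 h after a gavage of Lactobacillus reuteri ATCC PTA 6475 against that of pups given carrier alone. Its members were taken by sample title, and they are 6 of the 18 arrays in the series: 3 titled for the 6475 strain at 24 h and 3 titled for PBS at 24 h. The pups were CD-1 mice, an outbred stock, 12 days old when tissue was taken, an age at which pups suckle. Each treated pup had received 1e+08 colony-forming units of the strain in 50 uL of phosphate-buffered saline (PBS), and each control pup 50 uL of PBS. The remaining group of that day, L. reuteri DSM 17938 at the same dose, and the 4 h groups of ATCC PTA 6475 and PBS, whose pups were 11 days old, are used only where a difference from them was tested or is set beside these values. Laser capture lifted the epithelium from sections of the terminal 4 cm of ileum, 24 for each pup, and its RNA was measured on Illumina mouse bead arrays. Each array is 1 mouse, male and female pups were both used, and the genes Xist and Kdm5d placed 2 females and 1 male in each of the 2 groups.

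The suckling ileum takes up milk macromolecules whole, digests them in large lysosomes and burns and exports milk fat, so its enterocytes carry many mitochondria and a busy secretory pathway. Mitochondria make ATP through respiratory complexes I to IV and ATP synthase, most of whose subunits are encoded in the nucleus and imported, while a separate ribosome inside the organelle translates the remaining ones. Lactobacillus reuteri is a resident of the mammalian gut that is given as a probiotic. The strain ATCC PTA 6475 is known for lowering the release of tumour necrosis factor from cultured human monocytic cells.

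Across 16835 genes and unnamed probes, 0 passed an adjusted p under 0.05 in limma, a share of 0%, and the lowest adjusted p was 0.123. At an unadjusted p under 0.05, 1277 genes were higher with ATCC PTA 6475 (7.59% of those tested) and 1260 were lower (7.48%). A difference below 0, of any size, was found in 47.6% of those tested. The 3 values of one group lay wholly above those of the other for 1816 genes in the direction of higher with the strain (10.8%) and for 1780 in the direction of lower (10.6%). Levels are log2 of the background-corrected, quantile-normalised signal, so a difference of 1 is a 2-fold difference, and differences had a median standard error of 0.18. With 3 mice a group, an exact two-sided permutation test of a single value cannot go below p = 0.1. No gene named below passed the adjusted threshold in this fit, so what follows gives levels, differences and counts. The fit has no term for the replicate number. With that number as a block some genes passed, as given in the section on the processing.

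The arrays themselves set limits on these counts. Replicates 2 and 3 of the ATCC PTA 6475 group had the lowest mean signals of all 18 arrays, 210.3 and 261.5, against 439.2 in replicate 1 and 369.7, 427.1 and 298.7 in the PBS group. Without PBS replicate 2 the count at an unadjusted p under 0.05 was 1325 in place of 2537, and without the 2 dimmest arrays it was 1406. The alternative without the dimmest arrays was chosen after seeing the data. Scaling the arrays to a common median in place of quantile normalisation moved the median difference of all genes from 0.02 to -0.16 and the share of lower calls from 49.7% to 92.6%. Higher and lower are therefore meant relative to the bulk of genes. Of the genes under the unadjusted threshold that had further detected probes, 67.9% had the same sign at every probe.

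Most nuclear genes for the respiratory chain had differences below 0 with ATCC PTA 6475. Of 32 complex I genes tested, 26 had a difference below 0 and 13 of them an unadjusted p under 0.05 (40.6%, against 7.48% of all genes), with a median of -0.28 against 0.02 over all genes. The same counts were 10 and 5 of 11 for complexes II and III (median -0.30), 10 and 5 of 11 for complex IV (-0.15) and 14 and 6 of 14 for ATP synthase (-0.29). No gene of the 4 lists was higher at an unadjusted p under 0.05, and 0 passed the adjusted threshold. Among the 4209 brightest genes tested, 9.17% were lower at the unadjusted threshold. Gene length moved with the differences too. Among the 3198 genes with the shortest genomic span 10.9% were lower and 4.19% higher (median -0.05), and among the 3198 longest 4.66% were lower and 7.91% higher (median 0.06). The shortest set held 59.4% of the complex I genes and 78.6% of the ATP synthase genes. Of lists described below, it held 62.5% of the mitochondrial ribosome and 97.8% of the cytosolic ribosomal protein genes. The longest set held 52.5% of the chromatin modifiers, 57.1% of the crypt and Wnt genes and 11.6% of the genes named Zfp. The part of gene length in the list differences was not tested.

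**Figure D1:**
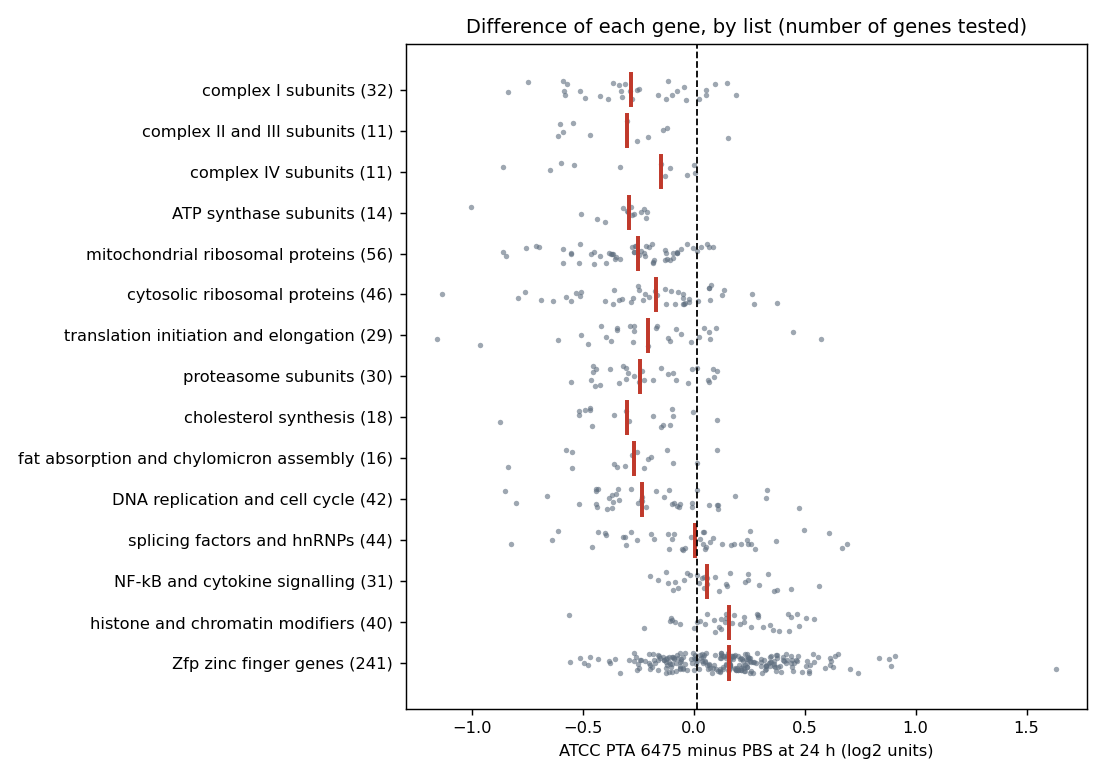
Difference between ATCC PTA 6475 and PBS at 24 h for each gene of 15 lists, in log2 units on the horizontal axis, with list sizes in parentheses. Grey points are genes, red bars the list medians and the dashed line the median of all genes, 0.02. The medians of the respiratory chain, ATP synthase and mitochondrial ribosome lists lie between -0.30 and -0.15, and those of the chromatin and Zfp lists at 0.16.

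Ndufc2, a membrane-arm subunit of complex I, gave the most negative difference of that list. Its levels were 10.46, 9.87 and 9.42 with the strain and 10.69, 11.04 and 10.53 with PBS. The groups did not overlap, replicate 3 of the strain was lowest, and the difference was -0.84 ± 0.22 (standard error), or 1.79-fold lower. A further Ndufc2 probe differed by -0.63. Ndufb6, another membrane-arm subunit, stood at 10.98, 10.73 and 10.51 with the strain against 11.36, 11.72 and 11.37, a difference of -0.75 ± 0.19 with no overlap. In complex III, Cyc1, the cytochrome that passes electrons on to cytochrome c, was at 9.89, 10.04 and 9.90 with the strain and 10.32, 10.91 and 10.44 with PBS. All 3 PBS values were higher, and the difference was -0.61 ± 0.18. Atp5pb, a peripheral stalk subunit of ATP synthase, had the widest gap among the ATP synthase genes: 7.83, 7.93 and 7.51 against 8.72, 8.85 and 8.71, or -1.01 ± 0.28. Its 3 other probes spread from -0.06 to -1.17, all of the same sign. Atp5g3, which encodes the membrane ring of the enzyme, was at 13.72, 13.53 and 13.61 with the strain against 13.93, 14.12 and 14.13, again without overlap (-0.44 ± 0.14).

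The nuclear factor NRF1 is known for binding promoters of respiratory chain genes, and the promoters of the list were therefore searched for its core, GCATGCGC, on both strands of the 250 bases before the gene start. It occurred in 9 of 59 respiratory chain and ATP synthase genes that have a RefSeq promoter (15.3%) and in 466 of 10288 tested genes (4.53%). With genes of 1 chromosome left out, windows were chosen by smallest unadjusted p among lower genes of the list with a match. The 2 windows below belong to Ndufa11 of complex I and Cox6a1 of complex IV. They come from RefSeq (GRCm38.p6) at chr17:56717512-56717761 on the plus strand and chr5:115348959-115349208 on the minus strand, and are printed 5′ to 3′ with the core in capitals. In each the capitals are 2 overlapping matches, 1 per strand, since the core reads nearly the same on both.
Ndufa11: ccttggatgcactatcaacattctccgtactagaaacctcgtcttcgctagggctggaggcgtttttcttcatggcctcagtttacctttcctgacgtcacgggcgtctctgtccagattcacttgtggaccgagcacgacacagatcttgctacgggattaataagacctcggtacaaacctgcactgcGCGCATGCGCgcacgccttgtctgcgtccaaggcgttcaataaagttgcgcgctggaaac
Cox6a1: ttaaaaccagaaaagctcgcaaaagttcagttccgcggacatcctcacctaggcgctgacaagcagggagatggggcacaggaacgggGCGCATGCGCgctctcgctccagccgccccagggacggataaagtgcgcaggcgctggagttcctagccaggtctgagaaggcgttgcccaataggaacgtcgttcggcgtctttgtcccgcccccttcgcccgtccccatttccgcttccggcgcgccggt
A match describes letters in a window and not a bound site. Ndufa11 stood at 10.28, 10.33 and 10.15 with the strain and 10.63, 11.11 and 10.74 with PBS (-0.57 ± 0.15), and Cox6a1 at 12.14, 11.95 and 11.84 and 12.47, 12.62 and 12.63 (-0.60 ± 0.17). In both genes every PBS array lay above every ATCC PTA 6475 array, and the other Cox6a1 probe differed by -0.54.

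Genes for the proteins of the mitochondrial ribosome were lower to a like extent. Of 56 genes 51 had a difference below 0, 17 of them at an unadjusted p under 0.05 (30.4%), and 22 had groups that did not overlap in that direction (39.3%, against 10.6% of all genes). The median was -0.25. Mrpl46, a protein of the large subunit, stood at 9.45, 9.72 and 9.50 with the strain and 10.23, 10.44 and 10.13 with PBS. Mrpl53 of the same subunit, which was not among the 56 genes counted, stood at 9.14, 9.07 and 8.99 and 9.59, 10.23 and 9.69. Neither gene's groups overlapped, and the differences were -0.71 ± 0.17 and -0.78 ± 0.18. The NRF1 core was in 6 of 49 promoters of these genes (12.2%). The core of the factor GABP, ACTTCCGG, was in 7 of them (14.3%), against 5.98% of all promoters, 3 of 59 in the respiratory chain and ATP synthase (5.08%), 16.2% in cytosolic ribosomal proteins and 15.2% in the replication list.

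Genes that build the rest of the organelle had fewer calls. In the import and assembly list 18 of 21 were below 0 and 5 at the unadjusted threshold (23.8%, against 7.48% of all genes). The median was -0.15, but without PBS replicate 2 it was -0.08 with 1 lower. Tomm40, the channel of the outer membrane, was at 5.99, 6.55 and 6.07 with the strain and 6.73, 7.49 and 6.81 with PBS (-0.81 ± 0.27). Dnajc11, a protein of the outer membrane that associates with the complex shaping the inner folds, had the smallest unadjusted p of all named genes. Its levels were 5.81, 6.03 and 5.81 against 6.58, 6.68 and 6.61, a tight pair of groups -0.74 ± 0.13 apart (1.67-fold, adjusted p = 0.123 in limma, lower in 3 of 3 arrays than any control). The tricarboxylic acid cycle list differed less: 1 of 15 was lower at the unadjusted threshold (6.7%, near the 7.48% of all genes; median -0.11). Fatty acid oxidation and ketogenesis, which feed the chain in suckling enterocytes, had 4 of 25 lower, 13 below 0 and a median of -0.11.

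Which arrays carried these lists was read from a list level per array, the median over its genes of the level minus that gene's mean over the 6 arrays. For complex I it was -0.04, -0.11 and -0.31 in the ATCC PTA 6475 arrays and 0.07, 0.24 and 0.07 in the PBS arrays. For the mitochondrial ribosome it was -0.11, -0.10 and -0.20 against 0.02, 0.32 and 0.07. The groups did not overlap in either list, but replicate 3 of the strain was lowest and PBS replicate 2 highest in both. Without PBS replicate 2 the complex I median was -0.22 with 7 genes lower at the unadjusted threshold, that of complexes II and III -0.23 with 1, the complex IV median -0.04 with 3, the ATP synthase median -0.24 with 4, and the mitochondrial ribosome median -0.14 with 10. Without the 2 dimmest arrays, which leaves 1 array of the strain whose spread is taken from the other groups, the counts of lower genes were 1 for complex I (median -0.11), 2 for complexes II and III, 0 for complex IV, 1 for ATP synthase and 6 for the mitochondrial ribosome (median -0.25). With the mean signal of each array as a covariate, also added after seeing the data, complex I had 7 lower (median -0.21) and the mitochondrial ribosome 11 (-0.22). Under median scaling complex I and the mitochondrial ribosome had medians of -0.62 and -0.58, against -0.16 for all genes. Some lists near 0 in the main fit also fell below -0.16 there, splicing factors from 0.01 to -0.31 and cell junction genes from 0.04 to -0.28. Others moved less, such as immediate early genes from -0.02 to -0.16. Replicate 3 of the strain was also the array with the highest smooth muscle list level, 0.43, against -0.36 in replicate 1. The part of captured muscle in these differences was not tested.

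**Figure D2:**
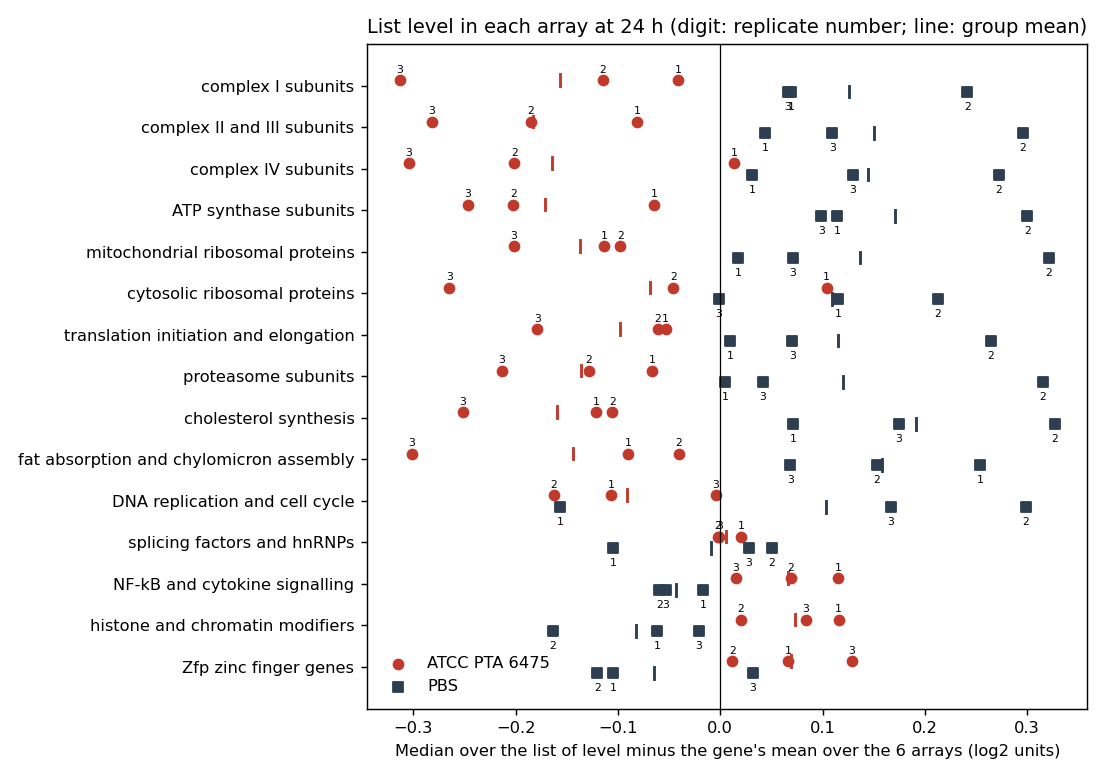
Level of each of 15 lists in each array at 24 h, as the median over its genes of the level minus the gene's mean over the 6 arrays, in log2 units. Red circles are ATCC PTA 6475, dark squares PBS, digits replicate numbers and short lines group means. PBS replicate 2 is the highest array for complex I at 0.24 and ATCC PTA 6475 replicate 3 the lowest at -0.31.

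Genes of cytosolic protein synthesis had more lower than higher calls, all of them unadjusted. Of 29 translation initiation and elongation factors 9 were lower and 2 higher at an unadjusted p under 0.05, against 7.48% and 7.59% of all genes, and the median was -0.21. Without PBS replicate 2 it was -0.11 with 4 lower. Of 46 cytosolic ribosomal protein genes 13 were lower and 1 higher (median -0.17). That median was -0.01 without the 2 dimmest arrays and -0.06 without replicate 3 of the strain, where 2 and 6 genes were lower, and -0.07 with 6 lower under the mean-signal covariate. Without PBS replicate 2 it was -0.11 with 4. Ribosomal proteins have many near-identical processed copies in the genome, and which of them a probe reads was not examined.

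Eef2, the factor that moves the ribosome along its message, stood at 6.31, 7.59 and 7.11 with the strain and 8.49, 7.87 and 8.13 with PBS. The groups did not overlap, replicate 1 of the strain was lowest, and the difference was -1.16 ± 0.34. Both other Eef2 probes differed by a like amount, -1.05 and -1.22. Eif3b, a scaffold subunit of initiation factor eIF3, was at 7.91, 8.05 and 7.76 against 8.62, 9.35 and 8.64 (-0.97 ± 0.27), with PBS replicate 2 the highest. Rpl7a of the large ribosomal subunit was at 8.41, 9.22 and 8.31 against 9.64, 10.24 and 9.48 (-1.14 ± 0.31). The 2 genes of the translation list that were higher at the unadjusted threshold were initiation factors: Eif5b, which joins the ribosomal subunits, was at 7.86, 7.78 and 7.75 with the strain and 7.34, 7.17 and 7.54 with PBS (0.45 ± 0.13), and Eif4a2, an RNA helicase, at 13.51, 13.47 and 13.73 and 13.04, 12.73 and 13.22 (0.57 ± 0.15). Of the 3 other Eif4a2 probes 1 differed by -0.15.

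Enzymes that load amino acids on transfer RNA were mixed. Of 19 synthetases 5 were lower and 3 higher at the unadjusted threshold (26.3% and 15.8%, against 7.48% and 7.59% of all genes). Without PBS replicate 2 the counts were 2 and 1. Aars, which loads alanine, was at 4.80, 5.20 and 4.68 with the strain and 5.78, 6.17 and 5.84 with PBS, a gap of -1.04 ± 0.22, or 2.05-fold (adjusted p = 0.123 in limma). The gene was detected in 2 of the 3 arrays of the strain, and its other probe differed by -0.29. Iars, for isoleucine, was at 8.65, 8.73 and 8.81 against 9.24, 9.65 and 9.32 (-0.67 ± 0.16) and its other probe at -0.62, whereas Cars, for cysteine, was at 8.39, 8.46 and 9.22 against 7.88, 7.97 and 8.51 (0.57 ± 0.23), with groups that overlapped.

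Genes that fold, carry and degrade proteins were examined next. Among 41 Rab, Arf and coat genes 29 were below 0 and 5 at the unadjusted threshold (12.2%, against 7.48% of all genes). In 13 the groups did not overlap in that direction (31.7%, against 10.6%). Rab1b, a GTPase of traffic from the endoplasmic reticulum to the Golgi, stood at 5.84, 6.60 and 6.64 with the strain and 7.68, 7.99 and 7.50 with PBS (-1.36 ± 0.30, 2.57-fold), but its 2 other probes differed by -0.07 and -0.14. Arf5, a Golgi GTPase, was at 5.80, 6.65 and 5.89 against 7.06, 7.31 and 6.80 (-0.94 ± 0.20). Sec61b, part of the channel through which secreted proteins enter the endoplasmic reticulum, was at 8.58, 8.10 and 8.04 against 9.02, 9.47 and 8.95 (-0.90 ± 0.21), and its second probe differed by -1.03. In the folding list of the endoplasmic reticulum 1 of 25 was lower (4%), Sdf2l1, at 6.74, 7.13 and 7.09 against 7.63, 8.36 and 8.02. Of 30 proteasome genes 24 were below 0 and 6 at the unadjusted threshold (20%, against 7.48% of all genes). The median was -0.24, and without PBS replicate 2 it was -0.12 with 3 lower. Psmb4, a subunit of the core, was at 12.05, 12.00 and 12.02 with the strain against 12.44, 12.59 and 12.43. The inducible immunoproteasome subunit Psmb8 had a wider gap, 6.90, 6.41 and 6.12 against 7.38, 7.81 and 7.41 (-1.06 ± 0.32), while its other probe differed by -0.10.

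In the oxidative stress and redox list 17 of 22 genes were below 0 and 5 at the unadjusted threshold (22.7%, against 7.48% of all genes). Without PBS replicate 2 that count was 2, and without replicate 3 of the strain 1. Gpx1, the main cytosolic glutathione peroxidase, was at 11.02, 10.68 and 10.21 with the strain and 11.65, 11.87 and 11.68 with PBS. The PBS values were tightly grouped and all higher, and the difference was -1.09 ± 0.31 (2.14-fold). Prdx3, the peroxiredoxin of mitochondria, was at 8.20, 7.94 and 7.50 against 8.47, 8.64 and 8.43 (-0.63 ± 0.21).

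Genes of lipid synthesis and uptake were mostly below 0. In cholesterol synthesis 17 of 18 genes were below 0, against 47.6% of all genes, with a median of -0.30. Of the list 5 were lower at the unadjusted threshold (27.8%, against 7.48% of all genes) and 9 without overlap (50%, against 10.6%). Without PBS replicate 2 the median was -0.23 with 1 lower, and with the mean-signal covariate -0.23 with 1. In fatty acid synthesis 11 of 12 were below 0 and 3 at the unadjusted threshold (25%). Srebf1, the factor that drives fatty acid synthesis genes, stood at 6.83, 6.29 and 6.44 with the strain and 7.06, 7.25 and 7.20 with PBS (-0.65 ± 0.18). Scd2, which introduces a double bond into saturated fatty acids, was at 7.05, 7.45 and 6.71 against 8.20, 8.44 and 8.36 (-1.26 ± 0.40), and no array of the strain reached the lowest PBS value. Fads2, a desaturase of polyunsaturated fatty acids, was at 7.33, 7.80 and 7.55 against 8.06, 8.31 and 8.20 (-0.63 ± 0.17), with a second probe at 0.08. Lpcat3, which puts polyunsaturated chains into membrane phospholipids, was at 11.12, 11.18 and 10.82 against 11.59, 11.37 and 11.46 (-0.43 ± 0.12; second probe -0.40). In fat absorption and chylomicron assembly 14 of 16 were below 0 and 3 at the unadjusted threshold (18.8%), or 1 without PBS replicate 2. Among the 3 was Plin2, which coats lipid droplets, at 7.45, 6.95 and 6.41 against 7.91, 7.97 and 7.44 with 1 value in overlap.

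Promoters of the cholesterol genes are known for pairing sites of the sterol factor SREBP with CCAAT boxes, which bind the factor NF-Y. CCAAT, read on both strands of the 250 bases, was in 15 of 15 cholesterol genes that have a promoter (100%) and in 4091 of 10288 tested genes (39.8%). The spelled SREBP core TCACNCCAC was in 0 of the 15 and in 1.25% of all. The windows shown are those of 2 lower members, taken by smallest unadjusted p among members with a promoter in that source, outside the chromosome left out above. They are Nsdhl, a sterol decarboxylating enzyme, at chrX:72918271-72918520, and Mvk, mevalonate kinase, at chr5:114444019-114444268, both on the plus strand of GRCm38.p6 and from RefSeq. Capitals mark CCAAT or its reverse complement.
Nsdhl: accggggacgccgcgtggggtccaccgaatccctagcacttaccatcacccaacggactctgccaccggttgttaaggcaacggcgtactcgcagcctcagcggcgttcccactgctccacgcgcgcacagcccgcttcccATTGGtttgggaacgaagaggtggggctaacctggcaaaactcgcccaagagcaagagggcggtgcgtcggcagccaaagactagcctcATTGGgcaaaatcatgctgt
Mvk: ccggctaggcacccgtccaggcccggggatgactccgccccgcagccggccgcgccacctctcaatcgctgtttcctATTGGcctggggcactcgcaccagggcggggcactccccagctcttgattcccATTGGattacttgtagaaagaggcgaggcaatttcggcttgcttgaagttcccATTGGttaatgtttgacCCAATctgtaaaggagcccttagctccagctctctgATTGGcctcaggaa
Nsdhl holds 2 boxes and Mvk 5. Mvk stood at 4.84, 4.69 and 5.11 with the strain and 4.97, 5.74 and 5.34 with PBS, with overlap, and was detected in 2 of the 3 arrays of the strain. Nsdhl was at 6.22, 6.26 and 6.17 against 6.63, 6.88 and 6.69 (-0.52 ± 0.18), and its 3 other probes differed by -0.44 to -0.80.

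Genes of DNA replication and the cell cycle lay mostly below 0. Of 42 tested 33 were below 0, 7 were lower and 2 higher at the unadjusted threshold (16.7% and 4.8%, against 7.48% and 7.59% of all genes), and the median was -0.23; without PBS replicate 2 the count of lower genes was 2 (median -0.15). Cdk4, the kinase that starts passage into S phase, was at 8.88, 8.81 and 8.03 with the strain and 9.29, 9.63 and 9.36 with PBS (-0.85 ± 0.26; second probe -0.18). Gins2, part of the replicative helicase, was at 7.39, 7.64 and 7.74 against 7.92, 8.48 and 8.36 (-0.66 ± 0.21), and its other probes differed by -0.76 and -0.82. Cdk2, a kinase of the same passage, lay on the other side, at 11.19, 11.27 and 11.44 against 10.95, 10.84 and 11.12 (0.33 ± 0.13), a gap that was -0.0028 under median scaling. Its 3 other probes were at 0.13 to 0.26. The E2F core TTTNGCGC was in 4 of 33 promoters of this list (12.1%, against 2.2% of all).

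Further genes on the lower side had a small unadjusted p or a wide gap. Cebpa, a transcription factor of hepatocyte, adipocyte and myeloid differentiation, was at 4.86, 5.15 and 4.93 with the strain and 6.12, 6.20 and 5.76 with PBS, 2.06-fold lower (-1.05 ± 0.21, adjusted p = 0.123 in limma). Asl, argininosuccinate lyase, the last enzyme by which the suckling enterocyte makes arginine, stood at 4.75, 5.25 and 5.26 against 6.62, 6.15 and 6.48. Its groups were -1.33 ± 0.28 apart (2.51-fold), its second probe differed by -0.77, and adjusted p was again 0.123 in limma. The levels of both Cebpa and Asl with the strain were near the low end of the scale. Apip, an enzyme of methionine salvage, was at 5.97, 5.64 and 5.54 against 6.41, 6.98 and 6.79 (-1.01 ± 0.19), but its 2 other probes stood at -0.21 and 0.01. Akr1c12, an aldo-keto reductase with close paralogs, was at 7.43, 7.89 and 7.35 against 8.87, 8.91 and 9.01 (-1.37 ± 0.35).

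On the higher side, Hsd3b2, of the family that oxidises and isomerises steroid hormone precursors, had the smallest unadjusted p of the named genes that were higher. It stood at 12.88, 12.77 and 12.67 with the strain and 12.02, 11.72 and 12.07 with PBS, groups far from overlap and 0.84 ± 0.15 apart, 1.79-fold (adjusted p = 0.123 in limma). The family has near-identical members, and 2 further probes assigned to the gene differed by 0.03 and 0.52. Terf1, which binds the repeats of telomeres, was at 8.85, 8.78 and 8.82 against 8.07, 7.87 and 8.20 (0.77 ± 0.15), and Clec2d, a lectin-like ligand of natural killer cell receptors, at 11.41, 11.39 and 11.25 against 10.78, 10.67 and 10.71 (0.63 ± 0.13). In both genes the 3 arrays of the strain lay close together and above all controls. Of matrix genes, Npnt, an integrin ligand of basement membranes, was at 7.01, 7.58 and 7.49 against 6.40, 6.56 and 6.53 (0.87 ± 0.19), and Lama4, a laminin chain, at 5.87, 5.88 and 6.19 against 4.98, 5.20 and 5.13 (0.88 ± 0.18), with a second Lama4 probe at 0.06. Arl16, a small GTPase of the Arf family, had a wide gap, 7.86, 6.59 and 7.14 against 5.70, 4.85 and 5.05 (2.00 ± 0.48, 3.99-fold). The PBS values of 4.85 and 5.05 were near the low end of the scale.

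**Figure D3:**
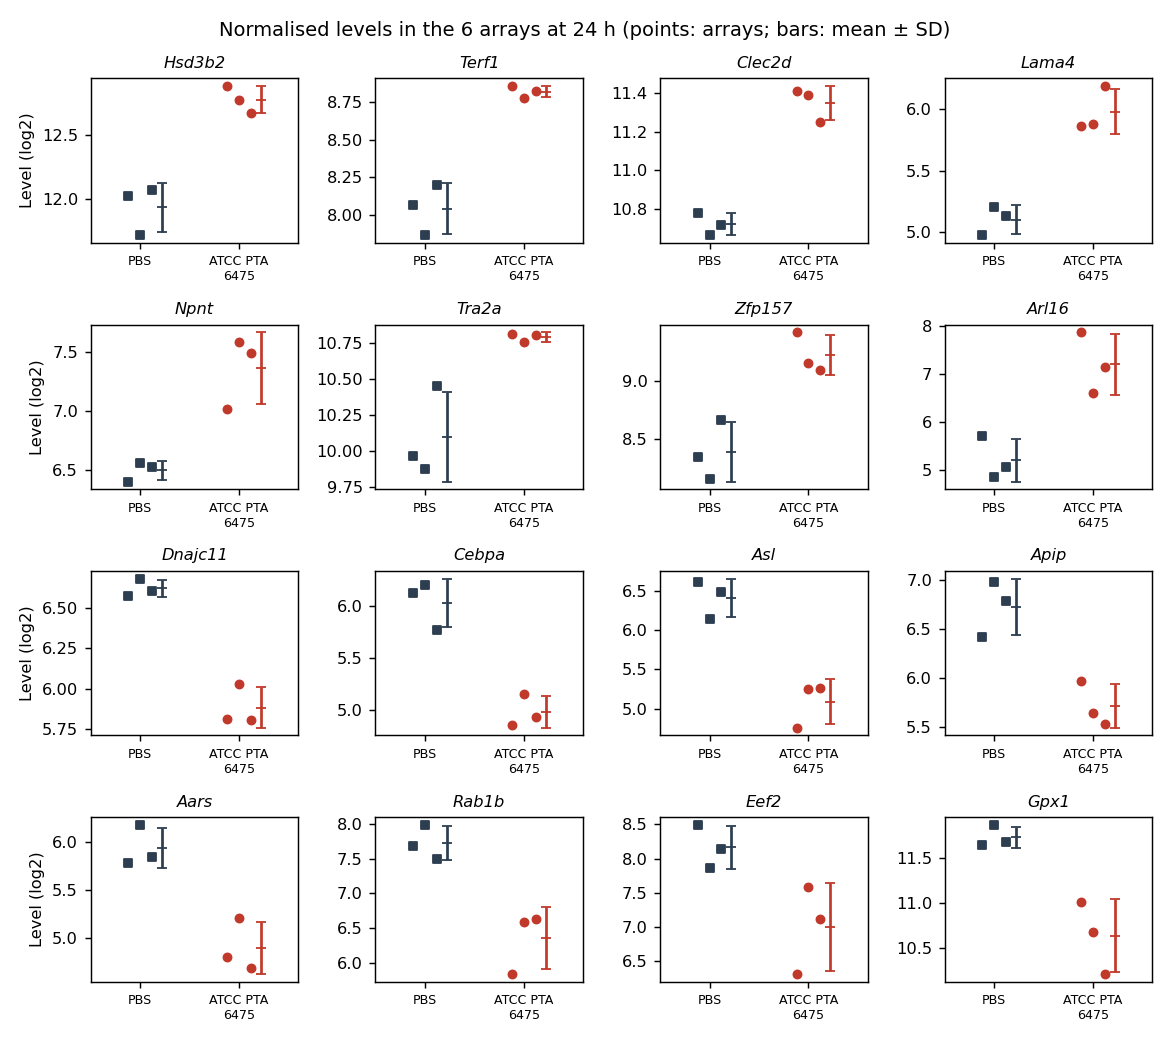
Normalised log2 levels of 16 genes in the 3 PBS arrays (dark squares) and the 3 ATCC PTA 6475 arrays (red circles) at 24 h, each in replicate order from left, with bars for the mean ± SD. The upper 2 lines of panels hold genes higher with the strain and the lower 2 lines genes lower with it; in none of the 16 do the groups overlap, and each panel has its own axis range.

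Nuclear regulators were among the lists with more higher than lower calls. Of 241 detected genes named Zfp, most of which encode DNA-binding zinc finger proteins, 166 were above 0, 34 were higher at the unadjusted threshold (14.1%, against 7.59% of all genes) and 6 lower (2.5%). Their median was 0.16, but it was -0.02 under median scaling, where all genes stood at -0.16 and the Zfp calls were 3 higher and 8 lower. Without the 2 dimmest arrays 22 were higher (median 0.12), and without PBS replicate 2 17 (0.12). Zfp157 was at 9.42, 9.16 and 9.09 with the strain and 8.34, 8.16 and 8.66 with PBS (0.83 ± 0.18). Zfp280d was at 8.67, 8.89 and 8.76 against 8.25, 7.89 and 8.34, and Zfp874b at 6.78, 6.97 and 6.52 against 5.83, 5.66 and 6.14; in all 3 genes the groups did not overlap.

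Histone and chromatin modifiers gave 32 of 40 genes above 0, 7 higher and 1 lower at the unadjusted threshold (17.5% higher, against 7.59% of all genes), and a median of 0.16. Under median scaling 0 were higher and 1 lower (median -0.10), and without PBS replicate 2 3 were higher. Kmt2d, which methylates histone H3 at enhancers, was at 9.73, 9.88 and 10.10 with the strain and 9.49, 9.38 and 9.56 with PBS (0.42 ± 0.13). Arid1b, a subunit of a SWI/SNF remodelling complex, was at 11.34, 11.28 and 11.22 against 11.02, 10.75 and 11.01, and a second probe at 0.00. The lower member was Smarcc1, a core subunit of the same complex, at 6.82, 6.54 and 6.32 against 7.02, 7.26 and 7.09 (-0.56 ± 0.24).

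Splicing factors lay on both sides, 6 higher and 6 lower of 44, around a median of 0.01. Each count was 13.6% of the list, against 7.59% higher and 7.48% lower of all genes. Under median scaling 0 were higher and 6 lower (median -0.31). Without PBS replicate 2 the counts were 7 higher and 3 lower. The higher ones included serine- and arginine-rich regulators of splice site choice. Tra2a was at 10.81, 10.75 and 10.81 with the strain and 9.97, 9.87 and 10.45 with PBS (0.69 ± 0.14), Srsf2 at 13.22, 13.22 and 13.21 and 12.79, 12.73 and 12.64, and Srsf5 at 12.09, 12.37 and 11.93 and 11.60, 11.20 and 11.58, with a second Srsf5 probe at -0.34. Hnrnph1, an RNA-binding hnRNP, was at 11.24, 11.08 and 10.89 against 10.37, 10.23 and 10.80 (0.61 ± 0.16), and all 4 of its other probes were also above 0. Its relative Hnrnpf lay on the lower side, at 6.43, 6.10 and 5.87 against 6.89, 7.11 and 6.86 (-0.82 ± 0.23). So did Snrpb, a protein of the ring around spliceosomal RNAs, at 10.08, 10.15 and 9.82 against 10.72, 10.82 and 10.41 (-0.64 ± 0.19; other probes -0.77 and -0.68).

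Signalling of innate immunity held a few genes on the higher side. In the NF-kB and cytokine list 5 of 31 were higher at the unadjusted threshold (16.1%, against 7.59% of all genes) and 0 lower, with a median of 0.06. Under median scaling 0 were higher and 1 lower (median -0.10), and without PBS replicate 2 2 were higher. Nfkbiz, a nuclear regulator of NF-kB target genes, was at 10.19, 10.41 and 10.35 with the strain and 9.73, 9.59 and 9.95 with PBS (0.56 ± 0.14, 1.48-fold). Nod1, a cytosolic sensor of bacterial cell wall, was at 8.97, 9.02 and 9.14 against 8.59, 8.54 and 8.87 (0.37 ± 0.14). Chemokines (1 higher and 0 lower of 16), interferon-stimulated genes (0 and 0 of 24) and MHC class II genes (0 and 0 of 10) stood near or below the share of all genes, with medians of -0.01, -0.01 and -0.04. Antimicrobial defence genes lay on the lower side, with 0 higher and 4 lower of 21 (19% lower, against 7.48% of all genes). Their median was -0.09, with 9 above 0 and 12 below, and it was 0.003 with 3 lower without PBS replicate 2. Cd1d1, which presents lipids to T cells, was at 7.75, 7.31 and 7.31 against 6.75, 6.43 and 7.05 (0.71 ± 0.19).

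Markers of the captured cell types were read as lists. Enterocyte genes were bright, with Apoa1, an apolipoprotein of chylomicrons, at 14.42, 14.46 and 14.36 with the strain and 14.77, 14.42 and 14.35 with PBS; Fabp1 and Fabp2, which carry fatty acids in enterocytes, did not pass the detection filter. Smooth muscle was present too: Acta2, its actin, was at 14.66, 14.81 and 15.17 and 14.99, 15.04 and 15.17, close to the brightest signals of the arrays. Its 4 other probes differed by -0.84, -0.89, -0.21 and 0.06. The 14 genes of its list summed to linear signals of 74348 to 119827 with the strain and 88655 to 93696 with PBS. Of the smooth muscle, endothelial, erythroid and B cell lists, 0 genes passed the unadjusted threshold in either direction. In captured tissue, fewer cells of a type and less RNA per cell cannot be told apart.

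Within the epithelium, markers of differentiated and crypt cells had few calls. Enterocyte markers gave 1 lower of 13 (7.7%) and brush border hydrolases 1 of 17 (5.9%), against 7.48% of all genes. Enteroendocrine markers gave 2 lower and 0 higher of 15 (13.3% lower), with 12 below 0 and a median of -0.14. Without PBS replicate 2 the enteroendocrine count was 1 lower. Paneth cell markers gave 0 higher and 0 lower of 7, and tuft cell markers 1 higher and 0 lower of 7 (14.3% higher, against 7.59%). Genes of the suckling stage gave 1 lower and 2 higher of 20 (5% and 10%, against 7.48% and 7.59%). The 2 higher suckling-stage genes were Dab2, an endocytic adaptor, at 12.44, 12.10 and 11.93 with the strain and 11.99, 10.72 and 11.89 with PBS, and Prdm1, the repressor that holds the suckling programme, at 5.83, 5.59 and 5.98 and 5.18, 5.003 and 5.76, both with overlap. Crypt and Wnt genes had 12 of 14 above 0 and 2 at the unadjusted threshold (14.3%, against 7.59% of all genes). Under median scaling 0 of them were higher and 1 lower (median -0.10). Without PBS replicate 2 the count of higher genes was 0 (median 0.15). Sox9, a crypt transcription factor, was at 12.34, 12.07 and 11.89 against 11.78, 11.41 and 11.62 (0.50 ± 0.18), but its second probe was at -0.15. Lgr5, the stem cell receptor, was at 8.93, 8.55 and 7.81 against 8.11, 7.68 and 8.04 with overlap. Goblet cell markers gave 1 higher and 0 lower of 12 (8.3% higher, near the 7.59% of all genes), with 7 above 0 and 5 below. Their median was 0.09, and -0.03 without replicate 3 of the strain. Tff3, a trefoil peptide of goblet cells, was at 12.79, 13.11 and 13.17 against 12.72, 12.51 and 12.49 (0.44 ± 0.16). Muc2, the goblet mucin, was at 13.01, 13.39 and 13.53 and 13.18, 13.26 and 13.19, which overlap.

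Among genes whose groups did not overlap, a few neutrophil genes were far below 0, while others of the list were near it. S100a8, a subunit of calprotectin, was at 6.05, 5.26 and 4.34 with the strain and 9.24, 6.21 and 6.54 with PBS, -2.11 ± 0.62 apart. Stfa2, a stefin of mouse neutrophils with near-identical paralogs, was at 5.74, 5.49 and 4.51 against 8.33, 5.91 and 6.90 (-1.79 ± 0.50). Ltf, lactoferrin of granules and milk, was at 5.59, 6.45 and 6.59 against 8.00, 6.86 and 7.36 (-1.20 ± 0.41). The groups did not overlap in these 3 genes, and 1 control, PBS replicate 1, was the highest in all 3. Without that control the difference was -1.16 for S100a8 and -1.15 for Stfa2, and each of these genes was detected in 2 of the 3 arrays of the strain. S100a9, the partner of S100a8, differed by -1.53 with groups that overlapped, and the granulocyte receptor Csf3r, the lysozyme gene Lyz2 and the granulocyte factor Cebpe differed by 0.14, 0.19 and -0.08. Over the myeloid and neutrophil list 13 of 17 were below 0 (median -0.36). At the unadjusted threshold 6 were lower and 1 higher (35.3% and 5.9%, against 7.48% and 7.59% of all genes). The list summed to 1554 to 2138 with the strain against 2031 to 3553. Without the 2 dimmest arrays its median was -0.07 and 0 were lower. The pan-leukocyte gene Ptprc and the integrins Itgam and Itgax did not pass the detection filter. Cd163, a scavenger receptor of resident macrophages, was the higher member, at 6.12, 5.99 and 6.62 against 5.88, 5.45 and 5.59 (0.61 ± 0.20).

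Whether any of this differed from the other strain was tested directly at 24 h. Between ATCC PTA 6475 and DSM 17938, 0 of 16835 genes passed an adjusted p under 0.05 in limma (lowest 0.754), and 673 had an unadjusted p under 0.05 (4%), fewer than the threshold alone allows. Both strains share the PBS arrays, so their differences from PBS are only set side by side. The complex I median was -0.08 for DSM 17938, -0.28 for ATCC PTA 6475 and -0.17 for the direct difference, where 1 of 32 genes had an unadjusted p under 0.05. For the mitochondrial ribosome the 3 medians were -0.16, -0.25 and -0.08, for cholesterol synthesis -0.24, -0.30 and -0.09, and for chromatin modifiers 0.16, 0.16 and 0.02. Leaving out predicted genes, the smallest unadjusted p was in Saa3, an acute-phase serum amyloid made by epithelium and macrophages. Its levels were 4.88, 5.14 and 5.32 with ATCC PTA 6475, 5.69, 5.49 and 4.999 with PBS and 8.52, 8.93 and 9.08 with DSM 17938. ATCC PTA 6475 overlapped the controls and stood -3.73 ± 0.78 from DSM 17938, with an adjusted p of 1 in limma. Without replicate 1 of the DSM 17938 4 h group, which enters through the shared spread and stood at 5.48 against 10.48 and 9.15 in its group, the adjusted p was 5.14e-05.

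Other genes with the smallest unadjusted p between the strains had smaller gaps. Tmem47, a membrane protein, was at 5.63, 5.68 and 5.73 with ATCC PTA 6475, 5.26, 4.98 and 5.16 with DSM 17938 and 5.08, 5.10 and 5.02 with PBS, all near the low end of the scale, and its 2 other probes differed from PBS by 0.24 and -0.07. Lpcat3 was at 11.12, 11.18 and 10.82, 11.33, 11.64 and 11.48 and 11.59, 11.37 and 11.46 in the same order. In both genes ATCC PTA 6475 stood apart from each of the other groups of that day, which overlapped. The direct differences were 0.55 ± 0.14 and -0.44 ± 0.12, and the adjusted p values in limma were 1 and 1.

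**Figure D4:**
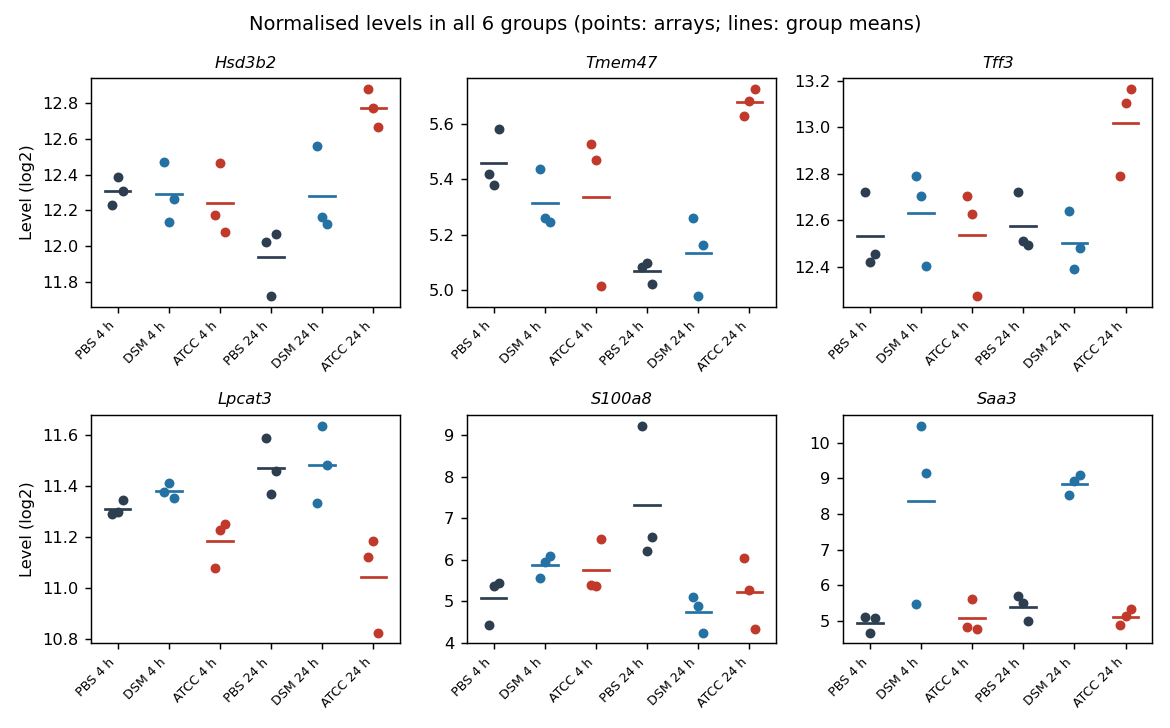
Normalised log2 levels of 6 genes in all 18 arrays, by group on the horizontal axis, with lines for group means; DSM is L. reuteri DSM 17938 and ATCC is ATCC PTA 6475. Saa3 is above 8 in every DSM 17938 array at 24 h and below 6 in every ATCC PTA 6475 and PBS array of that time, and S100a8 has 1 PBS array at 9.24.

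The difference at 24 h was also tested against that at 4 h. For the change of the strain effect between the times 0 genes passed an adjusted p under 0.05 in limma (lowest 1), and 791 had an unadjusted p under 0.05 (4.7%), again no more than the threshold allows. At 4 h the medians were -0.13 for complex I, -0.11 for the mitochondrial ribosome, -0.22 for cholesterol synthesis, -0.10 for the proteasome and 0.03 for Zfp genes, each nearer to 0 than at 24 h. Hsd3b2 was at 12.17, 12.46 and 12.08 with the strain and 12.23, 12.39 and 12.31 with PBS at 4 h, where the groups overlapped. Its difference was 0.91 ± 0.21 larger at 24 h (adjusted p = 1 in limma). Akr1c12 was at 8.84, 8.77 and 9.03 and 8.70, 9.02 and 7.45 at 4 h, and its change was -1.86 ± 0.50. Tubgcp4, of the gamma-tubulin complex that seeds microtubules, was at 6.38, 6.72 and 6.85 and 6.86, 6.75 and 7.09 at 4 h and at 7.38, 7.04 and 7.35 and 6.52, 6.56 and 6.56 at 24 h, with a change of 0.96 ± 0.22; a second probe differed by -0.26 at 24 h.

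**Figure D5:**
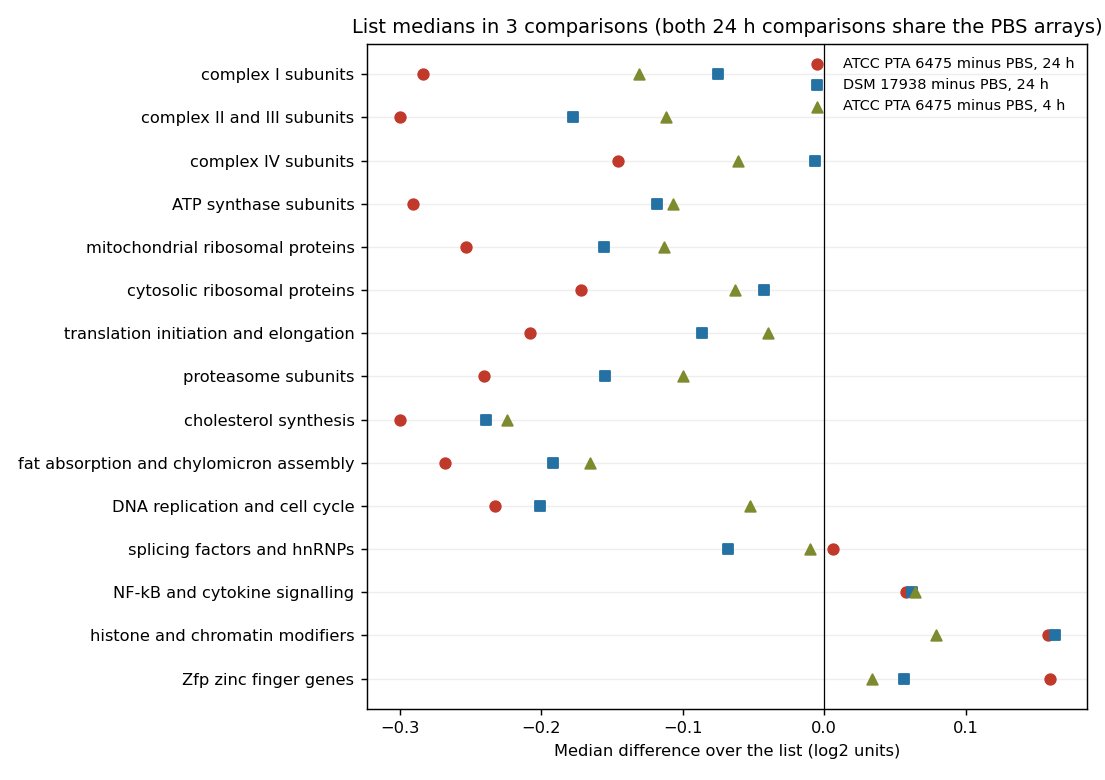
Median difference of 15 gene lists in log2 units for ATCC PTA 6475 minus PBS at 24 h (red circles), DSM 17938 minus PBS at 24 h (blue squares) and ATCC PTA 6475 minus PBS at 4 h (green triangles). The 24 h comparisons share their PBS arrays. For complex I the medians are -0.28, -0.08 and -0.13.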

How the data were processed

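The authors deposited 1 intensity per probe and array, linear and without normalisation between arrays as far as the file headers tell. Beside it stands a deposited detection value, a fraction between 0 and 1; it rises with the signal and was used as 1 minus the detection p. GenomeStudio is the only program in the submitters' processing notes. The authors' deposited log2 table has a median of 5.92 in each column and matches log2 quantile-normalised signals (largest median difference per array 0.00261); it served as an alternative. The sources used here do not say whether background was removed.

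Signals were background-corrected from the detection values, offset by 16, quantile-normalised and log2-transformed with neqc in limma 3.58.1 (R 4.3.3). A detection p under 0.05 in 3 or more arrays was required, which left 24506 of 45281 probes. Symbols came from GEO's platform annotation (1 for 34885 probes, several for 18, none for 10378), and 34807 were updated by gene ID. The brightest detected probe stood for its gene, leaving 12804 genes and 4031 unnamed probes. limma was fitted to all 18 arrays with 6 group means, 12 residual degrees of freedom and Benjamini-Hochberg adjustment; it was tested on simulated data. Promoters are RefSeq windows for 10288 tested genes.

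The members and lists were chosen with earlier results of these data known; older symbols and the Zfp family were added after the files were read. Genes named are 20 per direction by unadjusted p, the 15 and 15 largest non-overlapping differences, 15 and 15 at an adjusted p under 0.05 with the replicate number as a block, up to 6 members per list by unadjusted p, the 4 brightest markers per cell type and 6 and 6 for each further comparison. Predicted genes were left out. Genes outside this rule were named after their values were seen. The labels name a mouse per array but neither chip nor date, so these could not be examined. Array labels are numbered in runs that follow the replicate number. What that number marks is not stated, and it was fitted as a block only as an alternative.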

Additional observations from a re-analysis of the deposited data

How the results depend on the processing

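The counts depended on the scaling, on single arrays and on the replicate number, and the cause was not tested. Under median scaling 1293 genes did not overlap, 255 had an unadjusted p under 0.05 for the change between the times, and the list medians were -0.62 for complex I, -0.66 for complexes II and III, -0.41 for complex IV, -0.59 for ATP synthase, -0.58 for the mitochondrial ribosome, -0.48 for cholesterol synthesis, -0.46 for cytosolic ribosomal proteins, -0.55 for the proteasome, -0.10 for chromatin modifiers and -0.023 for Zfp genes. Differences changed sign there for Cdk2 (-0.0028), Rfc2 (-0.00060), Fbp2 (-0.018) and Kdm2a (-0.053). Taking the probe with the largest spread turned Eif4a2 (-0.15), Fads2 (0.076), Rfc2 (-0.86), Srsf5 (-0.34), Traf6 (-0.014), Sox9 (-0.15), Tubgcp4 (-0.26) and Sptbn1 (-0.033). With no detection filter the strain comparison had 1317 and the change between the times 1398 genes at an unadjusted p under 0.05, and array weights gave 1415 for the strains. With the replicate number as a block 246 genes passed an adjusted p under 0.05 in limma and 3178 the unadjusted threshold, 158 passed with sex added, 4 in a fit of the 6 arrays alone and 0 with a random block. Same-numbered arrays of the 2 groups had correlations of their deviations of 0.237, 0.041 and 0.464. Differently numbered arrays had correlations from -0.352 to 0.191. The labels do not say what the number marks, and it was not taken to pair the mice. However, for 17 of 18 arrays the mean correlation with arrays of the other groups was highest for their own replicate number. Leaving out 1 array at a time gave 0 to 1 genes at an adjusted p under 0.05, 1325 to 2730 at the unadjusted threshold and 3596 to 5913 without overlap, which smaller groups reach more readily. For the strains it gave 0 to 1 and 496 to 1289 genes. The cholesterol median ranged from -0.41 to -0.23 and the chromatin median from 0.13 to 0.23. Without the 2 dimmest arrays, chosen after seeing the data, the 1 array of the strain left was assumed to vary like the other groups. Then 1406 genes had an unadjusted p under 0.05, 9989 did not overlap, a number that 1 array against 3 does not make comparable with 3596, the medians of complex I, cytosolic ribosomal proteins and myeloid genes were -0.11, -0.011 and -0.067, and Stag3 stood at -0.039. With 3 arrays a group, and signals near background for dim genes, differences near the median standard error of 0.18 could not be resolved.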

Other observations

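In some genes the PBS arrays of the 2 times lay apart, a difference that was not tested. Arl16 was at 5.70, 4.85 and 5.05 in the PBS arrays at 24 h and at 7.17, 7.86 and 7.74 in those at 4 h. It was at 5.61, 7.89 and 7.84 with DSM 17938 at 24 h, so that 1 of those arrays lay with the controls. S100a8 was at 9.24, 6.21 and 6.54 with PBS at 24 h and at 4.41, 5.37 and 5.43 with PBS at 4 h.

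Rgp1, a partner of the Golgi exchange factor for Rab6 that was named after its values were seen, stood at 4.70, 4.70 and 6.80 with PBS and 6.85, 6.50 and 6.71 with ATCC PTA 6475 at 24 h. Without PBS replicate 3 it was the 1 gene past an adjusted p under 0.05 in limma, with a difference of 1.99 and an adjusted p of 0.00752.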
